A study of Arabidopsis thaliana with 6 samples.

Results

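The mitochondrial dysfunction stimulon is the set of nuclear genes that Arabidopsis thaliana switches on when its mitochondria fail, and 10 loci of this response and its control are described here in the silique, the seed pod. They are the regulators NAC013 and NAC017 and the response genes UPOX, AT12CYS-2, DIC2, OM66, SOT12, GSTU25, UGT74E2 and ERF71, taken by locus identifier from the 27628 loci of the deposited count table. RNA was sequenced from 3 wild type (WT) libraries and from 3 libraries labelled with the genotype shp1 shp2 mrpl1. SHP1 and SHP2 encode MADS-box factors that specify the valve margin, where the pod opens, and MRPL1, taken here as AT2G42710, encodes a protein of the mitochondrial ribosome. All plants grew on agar with half-strength Murashige and Skoog salts and added sucrose, in long days. The sources used here gave no silique stage, mutant allele or number of plants per library. Nothing in the labels says that the 3 libraries of a group came from separate plants, so p-values measure the spread between these libraries, which may be technical.

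Plant mitochondria report trouble to the nucleus by retrograde signalling. NAC017 and NAC013 are made as transcription factors anchored in the endoplasmic reticulum membrane. When respiration is disturbed they are cut free, enter the nucleus and bind the mitochondrial dysfunction motif in front of their targets, NAC013 itself among them. The classical target is AOX1A, the alternative oxidase that lets electrons leave the respiratory chain early, and the other targets encode mitochondrial proteins and enzymes that conjugate small molecules. The release of the factors from the membrane is a step on the protein, which transcript counts do not measure.

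The motif was searched as CTTG, any 5 bases and CAAG, a form that reads alike on both strands, and as CTTG, any 5 bases and CACG, on both strands from 1000 bases before to 100 bases after the annotated start of each gene. It occurred near the start of 6 of the 10 genes. These sites are shown because the NAC factors are known to bind the motif, and binding was not measured here. Each line gives the strand of the gene, 5′ to 3′, with 8 bases on either side of the match, and capitals mark the fixed ends of the motif, written CGTG and CAAG where the CACG form lies on the opposite strand.

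NAC017: acctctgtCGTGtcagaCAAGaatgttgg
UPOX: tttagtaaCTTGctctcCAAGgagatcta
AT12CYS-2: gcaagaaaCGTGacgggCAAGgggaatat
SOT12: atattctaCGTGctcttCAAGtaaaggat
ERF71: tagaagaaCTTGgtcgtCAAGcaaaaaca
UGT74E2: ccgcacatCTTGgtcgcCACGgaacatag
AOX1A: atctagctCTTGgcgacCACGcaagtatc
AOX1A, other site: tcttccatCTTGctctcCAAGaaaaatct

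In the TAIR10.1 genome the printed stretches lie at chr1:12451287-12451315 on the plus strand for NAC017, chr2:9254319-9254347 on the plus strand for UPOX and chr5:2970503-2970531 on the plus strand for AT12CYS-2. They lie at chr2:1150637-1150665 on the minus strand for SOT12, chr2:19503624-19503652 on the minus strand for ERF71 and chr1:1704805-1704833 on the minus strand for UGT74E2. The AOX1A stretches lie at chr3:7906510-7906538 and chr3:7906537-7906565 on the plus strand. The match began 110 bases before the annotated start in NAC017 and 51 bases before it in UPOX. In AT12CYS-2, SOT12, UGT74E2 and ERF71 it began at base 14, 7, 14 and 59 of the gene, in the transcribed part ahead of the coding sequence. The start itself was counted as the first base. The AOX1A matches began 3 bases before the start and at base 25 of the gene. The 6 matches in these genes had 6 different 13-base cores, and the 13 bases of UPOX were the same as those at the other site of AOX1A.

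Over 27438 nuclear protein-coding genes with a full window, 4.89% held a match in either form, against 60% of the 10 genes. Of 9 further genes known as targets of this response, AOX1A included, 5 held one (55.6%). The CAAG form occurred in 3.19% of all genes and the CACG form in 1.82%, and more than 1 match, as in AOX1A, occurred in 0.281%. None of 12 other NAC genes, most of them known to encode membrane-bound factors, and none of 13 other retrograde regulators held a match. NAC013, GSTU25, DIC2 and OM66 did not have these letters in the window. A match is a description of the sequence and not evidence that a factor binds there, and the window was set after seeing where the matches fell. The genes of this response are known as targets of factors that bind this motif, so their share of matches is no independent result.

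**Figure D1:**
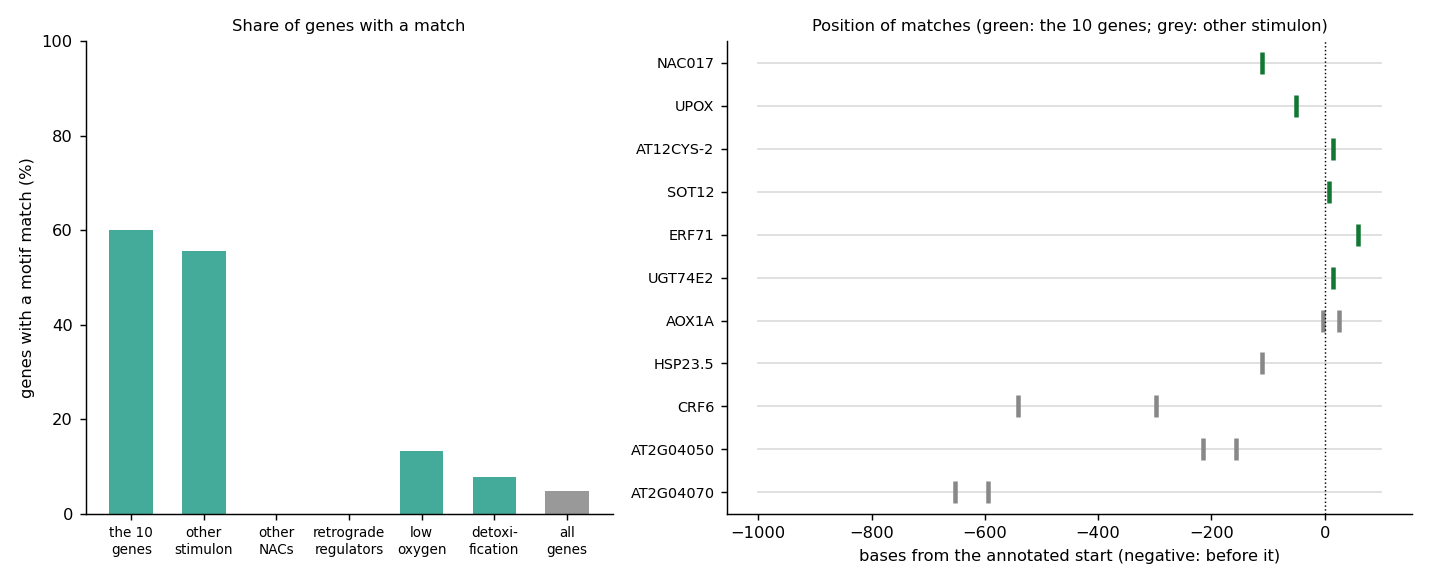
Left, the percentage of genes with a match to the motif in each list, with all protein-coding genes in grey; the bars reach 60% for the 10 genes, 55.6% for other stimulon genes and 4.89% for all genes. Right, the position of each match in bases from the annotated start, negative before it. The 6 matches in the 10 genes (green) begin between 110 bases before the start and base 59 of the gene.

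The libraries held between 17857873 and 21603816 estimated counts, and 20827 loci, the 10 genes among them, passed the expression filter. Of the genes named in the genotype, SHP1 fell to a log2 fold change of −0.51 (adjusted p = 0.0024, edgeR's quasi-likelihood test), SHP2 stood at −0.01 and MRPL1 at 0.24 (adjusted p = 0.172), so the second group is called mutant-labelled throughout. Library 1 of each group stood apart from its mates, with a chi-square per degree of freedom of 7.40 to 11.6 against them, compared with 2.49 and 2.81 between libraries 2 and 3. The 2 libraries 1 tended to deviate from their groups in opposite directions (correlation −0.36 across genes). Leaving out both therefore also moves the difference between groups along that deviation. How far this enters the calls of the fit without both libraries 1 was not tested. Log2 fold changes were lower for longer transcripts, with a Spearman correlation of −0.25 across 20733 genes, which are not independent replicates. Among 10 silique and seed markers 5 fell, where 4.07% of all tested genes did. They were the storage protein genes CRA1, CRU2 and CRU3, the oil body gene OLEO1 and the valve gene FUL. The other 5 were not called, with STK, BAN and IND above 0 (0.09, 0.12 and 0.31) and FUS3 and AGL62 below (−0.06 and −0.45). The list summed to 95954 to 99271 CPM (counts scaled to library size by TMM) in WT and 70226 to 76945 CPM in mutant-labelled libraries. Almost all of that sum came from CRA1, CRU2, CRU3 and OLEO1. Of 3 pollen markers VGD1 and VGDH1 rose, where 4.89% of all tested genes did. The pollen list summed to 13.1 to 15.5 CPM in WT and 19.6 to 23.2 CPM in mutant-labelled libraries. PPME1, the other pollen marker, lay above WT in every mutant-labelled library but was not called (1.14, adjusted p = 0.0939 by edgeR). The 2 petal and stamen markers were not called. AP3 overlapped between groups (0.11), and PI lay above WT in every mutant-labelled library (0.74, adjusted p = 0.136 by edgeR). Limma voom called 1 of these 2 higher, where 10.2% of all genes were. The fit without both libraries 1 called 2 higher, where 15.3% of all genes were. Of 3 root hair markers EXPA7 was at 0 in all libraries and none exceeded 1 count. The part of these differences in the results for the 10 genes was not tested, and in whole siliques fewer cells of a type and less RNA per cell cannot be told apart.

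The 10 genes did not move together. SOT12 rose, GSTU25 and DIC2 fell, and the other 7 were not called. That is 1 of 10 higher, where 4.89% of all tested genes were higher, and 2 of 10 lower, where 4.07% were lower (edgeR's quasi-likelihood test, Benjamini-Hochberg adjusted p under 0.05 over 20827 genes, of which 8.95% were called). Their median log2 fold change was −0.04, beside −0.0016 for all tested genes, with 4 genes above 0 and 6 below. In 5 of the 10 there was no overlap between WT and mutant-labelled libraries, 3 with the mutant-labelled above and 2 below, as in 25.9% of all tested genes (13.7% above and 12.3% below). These shares rest on 1 and 2 genes.

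**Figure D2:**
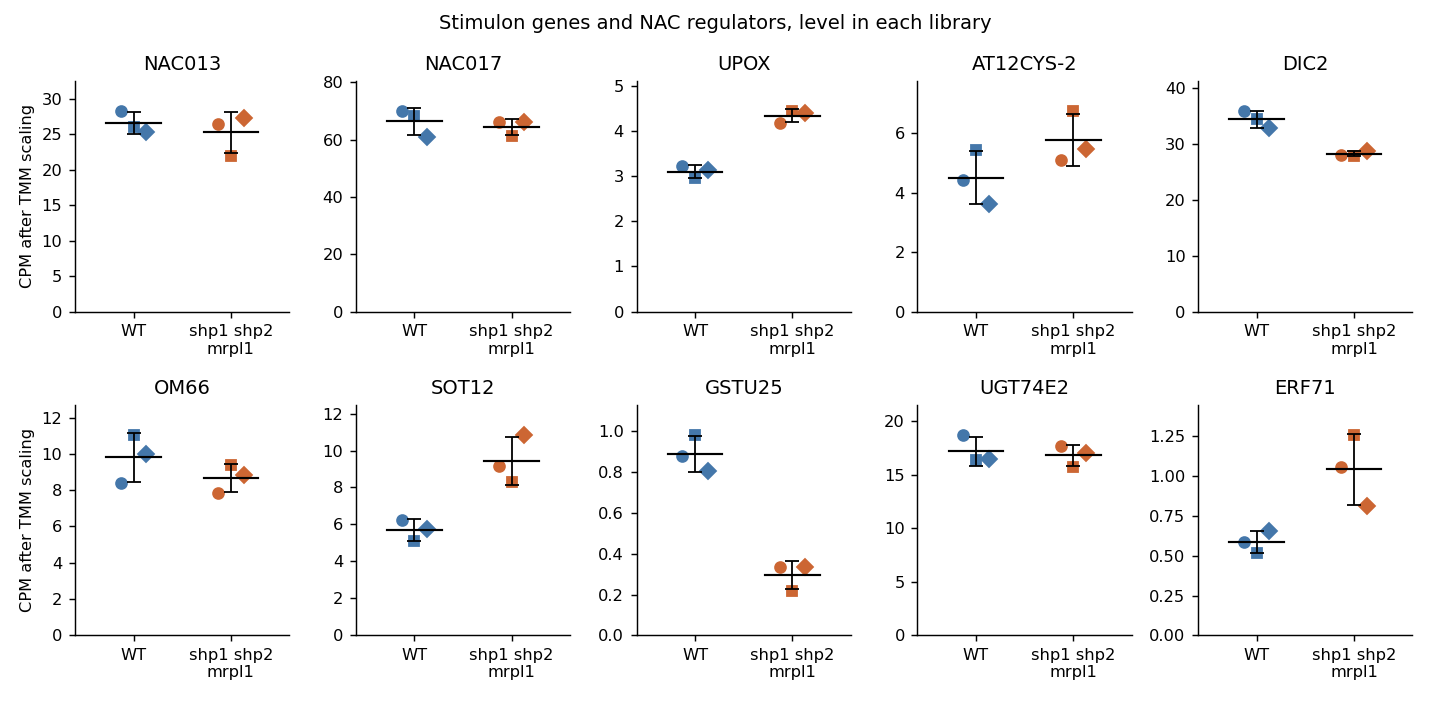
Level of each gene in CPM after TMM scaling (vertical axis, from 0, own range per panel) in the 3 WT and 3 mutant-labelled libraries; circles, squares and diamonds are libraries 1, 2 and 3, and bars give the mean ± SD. The groups separate upward in UPOX, SOT12 and ERF71 and downward in DIC2 and GSTU25, and overlap in the other 5 genes.

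Neither regulator was called. NAC017, the factor that starts the response, was at 69.9, 68.3 and 60.9 CPM in WT libraries 1 to 3 and at 66.0, 61.2 and 66.2 CPM in mutant-labelled libraries 1 to 3. NAC013, which is both a regulator and a target, was at 28.2, 26.0 and 25.3 CPM in WT and at 26.5, 22.0 and 27.3 CPM in mutant-labelled libraries. The groups overlapped in both genes. The log2 fold change of NAC017 was −0.04 (95% interval −0.21 to 0.12; adjusted p = 0.804 by edgeR) and that of NAC013 was −0.07 (95% interval −0.27 to 0.14; adjusted p = 0.728 by edgeR). A change of NAC013 transcript beyond about 1.10-fold up or 0.83-fold down lay outside its interval, and for NAC017 these bounds were 1.09 and 0.87. NAC017 (AT1G34190) spans chr1:12451405-12454542 in 4 exons and NAC013 (AT1G32870) spans chr1:11911631-11913947 in 3 exons, both on the plus strand. NAC013 overlaps AT1G32880 on the other strand by 20 bases, and the sources used here name no strand setting.

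Among the genes for mitochondrial proteins, DIC2 fell and UPOX was higher in every mutant-labelled library without passing the test. DIC2 (AT4G24570, 1 exon at chr4:12686459-12687650, plus strand) encodes a carrier of malate and other dicarboxylates in the inner mitochondrial membrane. It stood at 35.8, 34.5 and 32.8 CPM in WT and at 28.0, 27.9 and 28.8 CPM in mutant-labelled libraries. Each mutant-labelled library lay below each WT library, and the 3 were within 1 CPM of each other. The log2 fold change was −0.28 (SE 0.075; adjusted p = 0.0318 by edgeR), that is 0.822 of the WT level. This call was lost in 8 of 17 other ways of processing, among them DESeq2's test (adjusted p = 0.0568), scaling by library totals (adjusted p = 0.0544 by edgeR) and the removal of any single library other than WT library 1 (edgeR adjusted p from 0.0602 to 0.108), while the value stayed between −0.33 and −0.25. DESeq2 and the fit with a replicate block each called 0 of the 10 lower, where 3.45% and 1.54% of all genes were, with 2 of the 10 lower at an unadjusted p under 0.05 in both.

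UPOX (AT2G21640, 3 exons at chr2:9254378-9255743, plus strand) encodes a small mitochondrial protein named for its induction by oxidative stress. Its level was 3.22, 2.95 and 3.13 CPM in WT, from 66, 63 and 62 counts, and 4.17, 4.44 and 4.397 CPM in mutant-labelled libraries, from 87, 81 and 92 counts. Every mutant-labelled library lay above every WT library. Its log2 fold change was 0.48 (SE 0.15; 95% interval 0.16 to 0.81; edgeR unadjusted p = 0.0065, adjusted p = 0.0639). Without both libraries 1 it passed (0.54, adjusted p = 0.0393 by edgeR), as it did with limma voom (adjusted p = 0.0242) and with library totals (adjusted p = 0.0466 by edgeR). In these fits 15.3%, 10.2% and 6.01% of all genes were higher. UPOX has the shortest transcript of the 10, at 735 bases, and a correction for transcript length lowered its value to 0.39 (adjusted p = 0.111 by edgeR).

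AT12CYS-2 and OM66 overlapped between groups. AT12CYS-2 (AT5G09570, 5 exons at chr5:2970498-2972222, plus strand) encodes a twin-cysteine protein of mitochondria that is known to be induced when respiratory complex I is lost. It was at 4.44, 5.43 and 3.63 CPM in WT and at 5.08, 6.74 and 5.45 CPM in mutant-labelled libraries, with WT library 2 above mutant-labelled library 1. OM66 (AT3G50930, listed as BCS1 in RefSeq, 1 exon at chr3:18929526-18932181, plus strand) encodes an AAA-type ATPase of the outer mitochondrial membrane. It was at 8.39, 11.05 and 9.99 CPM in WT and at 7.82, 9.37 and 8.84 CPM in mutant-labelled libraries. Neither gene was called, at log2 fold changes of 0.35 (SE 0.17; adjusted p = 0.263 by edgeR) and −0.18 (SE 0.13; adjusted p = 0.453 by edgeR).

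Of the 3 enzymes that conjugate small molecules, SOT12 rose, GSTU25 fell and UGT74E2 was not called. SOT12 (AT2G03760, 1 exon at chr2:1149295-1150663, minus strand) encodes a sulfotransferase that acts on salicylic acid, flavonoids and brassinosteroids. It rose from 6.24, 5.10 and 5.75 CPM in WT to 9.16, 8.27 and 10.8 CPM in mutant-labelled libraries. The highest WT library lay well below the lowest mutant-labelled one. The increase was 1.66-fold (95% interval 1.35 to 2.03), or 0.73 on the log2 scale (SE 0.14; adjusted p = 0.0041 by edgeR). SOT12 was called in all 17 other ways of processing, with values from 0.62 to 0.83 and adjusted p no higher than 0.0347.

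GSTU25 (AT1G17180, 2 exons at chr1:5872024-5873124, plus strand) encodes a tau-class glutathione transferase. It fell to 0.341 of the WT level, from 0.878, 0.983 and 0.808 CPM in WT to 0.336, 0.219 and 0.335 CPM in mutant-labelled libraries. No mutant-labelled library came near the WT range. These levels rest on 18, 21 and 16 counts against 7, 4 and 7 counts, so the log2 fold change of −1.55 has a wide 95% interval, from −2.34 to −0.77 (SE 0.36; adjusted p = 0.0166 by edgeR). GSTU25 lost its call in 5 of the 16 other ways of processing that tested it: with DESeq2 (adjusted p = 0.0676), with the replicate number as a block (adjusted p = 0.0665 by edgeR), and without WT library 2 or mutant-labelled library 2 or 3 (adjusted p = 0.0706, 0.0739 and 0.0585 by edgeR). A filter of 1 CPM in at least 3 libraries removed it from the test.

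UGT74E2 (AT1G05680, 2 exons at chr1:1703002-1704838, minus strand) encodes a glucosyltransferase that attaches glucose to the auxin indole-3-butyric acid. It was at 18.7, 16.3 and 16.5 CPM in WT and at 17.7, 15.7 and 17.1 CPM in mutant-labelled libraries. The ranges nearly coincided, and the log2 fold change was −0.03 (95% interval −0.24 to 0.17; adjusted p = 0.888 by edgeR).

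ERF71, also called HRE2 (AT2G47520, 2 exons at chr2:19502776-19503702, minus strand), encodes an ERF transcription factor of the low-oxygen response. It was at 0.585, 0.515 and 0.656 CPM in WT and at 1.06, 1.26 and 0.812 CPM in mutant-labelled libraries, from 12, 11 and 13 counts and from 22, 23 and 17 counts. All 3 mutant-labelled libraries lay above WT. The log2 fold change of 0.82 was the largest increase among the 10 genes in value and the least precise of those above 0 (SE 0.32; 95% interval 0.14 to 1.5; adjusted p = 0.140 by edgeR), and it was called in 0 of the 16 other ways of processing that tested it, the 1 CPM filter having removed it as it did GSTU25.

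**Figure D3:**
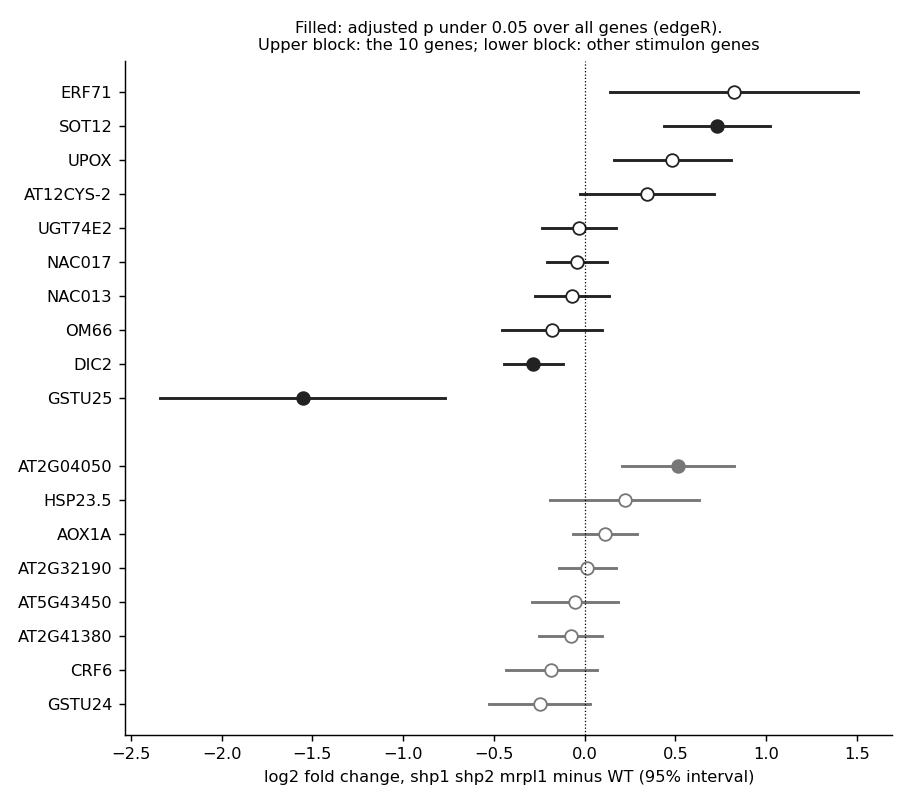
Log2 fold change, mutant-labelled minus WT, with its 95% interval for the 10 genes (upper block) and for 8 other stimulon genes that were tested (lower block); filled circles have an edgeR adjusted p under 0.05. Values of the 10 genes run from −1.55 in GSTU25 to 0.82 in ERF71, and those of NAC013, NAC017 and UGT74E2 lie within 0.1 of 0.

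Divided by transcript length, levels in WT spanned 41.5-fold. DIC2 was highest at 28.8 ± 1.28 CPM per kb (SD, n = 3), followed by NAC017 at 25.3 ± 1.83, NAC013 at 15.6 ± 0.904 and UGT74E2 at 9.80 ± 0.761 CPM per kb. AT12CYS-2 at 4.96 ± 0.992, UPOX at 4.22 ± 0.187, SOT12 at 4.16 ± 0.418 and OM66 at 3.69 ± 0.504 CPM per kb came next, each overlapping its neighbour among these 4 in its libraries, and OM66 did not overlap the gene below it. GSTU25 at 0.876 ± 0.087 and ERF71 at 0.695 ± 0.084 CPM per kb were lowest and did not overlap. The regulators were thus among the most abundant of these transcripts and GSTU25 and ERF71 rested on 4 to 23 counts per library. In mutant-labelled libraries DIC2 and NAC017 overlapped at the top, at 23.7 ± 0.403 and 24.6 ± 1.09 CPM per kb, SOT12 had a higher mean than AT12CYS-2, whose libraries it overlapped, and GSTU25, at 0.292 ± 0.066 CPM per kb, was below ERF71 at 1.24 ± 0.266 CPM per kb.

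Grouped by the sites printed above, the 6 genes with a match had log2 fold changes from −0.04 to 0.82 with a median of 0.41, and the 4 without one from −1.55 to −0.07 with a median of −0.23. The 1 gene that rose, SOT12, had a match, and neither of the genes that fell had one. NAC017 and UGT74E2, which also have a match, were within 0.05 of 0. This grouping was made with the values known and is a description only. Of all 885 tested genes with a match, 6.1% were higher and 3.73% lower (median 0.0024), and of 19843 without, 4.85% were higher and 4.1% lower (median −0.0025).

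For 8 of the 10 genes the level was set against a close relative within each library, which cancels the scaling between libraries. The trend with transcript length is not cancelled where the transcripts differ in length, as in OM66 (2656 bases) and AT3G50940 (1523 bases). No length correction was made to the ratios. The ratio describes how a pair moved and not which of the pair is more abundant per transcript. In 5 pairs the genes are direct neighbours on the same strand, with no protein-coding gene between them: NAC017 with NAC016, GSTU25 with GSTU24, SOT12 with SOT11, OM66 with AT3G50940 and UGT74E2 with UGT74E1. Their coding sequences match at 83.8%, 81.2%, 72.6%, 75.8% and 89.5% of aligned bases, and 33 to 1569 bases separate them. UGT74E2 and UGT74E1 were the pair that shared 50-base windows, 11 of 1706 in UGT74E2 and 11 of 1444 in UGT74E1. These windows count exact matches only. Read length and the handling of mismatches are not known here, so how far reads passed between the 2 genes was not tested.

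UGT74E1 rose while UGT74E2 did not. UGT74E1, the neighbour of UGT74E2, was at 0.976, 1.03 and 0.959 CPM in WT and at 2.73, 3.23 and 2.63 CPM in mutant-labelled libraries, with no overlap. These levels rest on 20, 22 and 19 counts against 57, 59 and 55. UGT74E1 also has a motif match, but the bases searched before its start run into UGT74E2, 252 bases away. The increase of UGT74E1 was as follows. It was 2.88-fold, a log2 fold change of 1.52 (SE 0.22), called in the main test and in all 17 other ways of processing (adjusted p = 0.00063 by edgeR in the main test). The ratio of UGT74E2 to UGT74E1 was 19.2, 15.9 and 17.2 in WT and 6.46, 4.86 and 6.49 in mutant-labelled libraries.

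GSTU25 fell against GSTU24, and SOT12 rose against SOT11. Ratios to GSTU26 and SOT13, of the same families, were not taken. Neither of these was called (log2 fold changes of 0.10 and −0.37, adjusted p = 0.634 and 0.410 by edgeR). The ratio of GSTU25 to GSTU24 was 0.0526, 0.0755 and 0.0658 in WT and 0.0310, 0.0165 and 0.0295 in mutant-labelled libraries, a mean log2 difference of −1.37. GSTU24, another stimulon gene, was at 16.7, 13.02 and 12.3 CPM in WT and at 10.8, 13.3 and 11.3 CPM in mutant-labelled libraries, and was not called (−0.25; adjusted p = 0.291 by edgeR). SOT12 to SOT11 went from 0.618, 0.556 and 0.745 to 0.965, 0.921 and 1.05 (0.62), with SOT11 itself at a log2 fold change of 0.10 (adjusted p = 0.701 by edgeR). OM66 to AT3G50940 went from 2.53, 3.11 and 2.91 to 2.06, 2.06 and 2.47 (−0.38), and neither gene was called. In these 3 pairs and in UGT74E2 with UGT74E1 the groups did not overlap. The exact permutation test, two-sided, gave p = 0.1 for each of the 4, the smallest it allows with 3 against 3, and 0.2 after Benjamini-Hochberg adjustment over 8 pairs.

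The other 4 pairs overlapped. The mean log2 difference was −0.08 for NAC017 to NAC016 (exact permutation p = 0.7), −0.12 for DIC2 to DIC1 (exact permutation p = 0.3), 0.30 for AT12CYS-2 to AT12CYS-1 (exact permutation p = 0.3) and 0.22 for ERF71 to HRE1 (exact permutation p = 0.6). DIC1, the other main dicarboxylate carrier, had a log2 fold change of −0.16 (adjusted p = 0.353 by edgeR), so DIC2 was called and DIC1 was not, while their ratio overlapped between groups. HRE1, a low-oxygen factor related to ERF71, was at 3.17, 3.09 and 2.93 CPM in WT and at 3.60, 5.75 and 4.78 CPM in mutant-labelled libraries, which gave 0.61 on the log2 scale (adjusted p = 0.0582 by edgeR). HRE1 overlaps AT1G72370 and AT12CYS-1 overlaps 3 genes, so both values are uncertain.

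**Figure D4:**
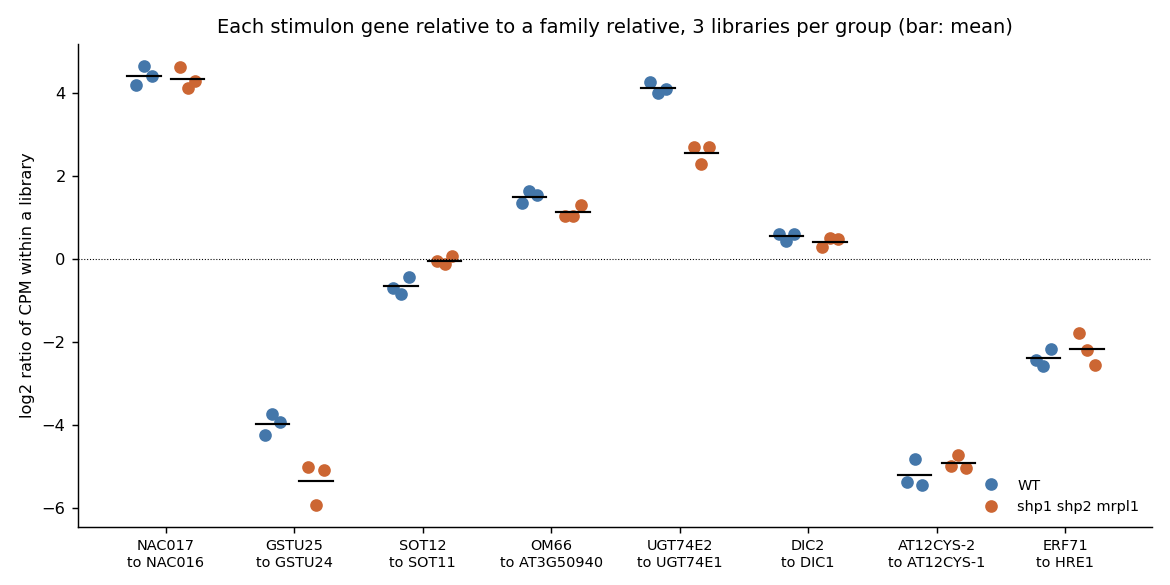
Log2 ratio of each gene to its relative in the same library (vertical axis), for 8 pairs, with 3 WT and 3 mutant-labelled libraries per pair and the mean as a bar. The groups separate for GSTU25, SOT12, OM66 and UGT74E2 against the neighbour shown and overlap for the other 4 pairs.

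Of 9 other stimulon genes AT2G04070 had too few counts to be tested, and the median of the 8 tested was −0.02. Of these 8, 1 rose and none fell, where 4.89% of all tested genes rose and 4.07% fell. It was AT2G04050, for a MATE-type transporter, at 4.63, 3.79 and 4.34 CPM in WT and 5.52, 5.97 and 6.74 CPM in mutant-labelled libraries (0.51; adjusted p = 0.0407 by edgeR), a call lost in 6 of 17 other ways of processing. It shares 3.53% of its 50-base windows with other transcripts. No lower call came from DESeq2 or limma voom either, and 0 of the 8 were lower at an unadjusted p under 0.05 in edgeR. AOX1A was at 66.8, 61.4 and 59.9 CPM in WT and at 62.1, 67.3 and 73.7 CPM in mutant-labelled libraries, so the groups overlapped (0.11; adjusted p = 0.474 by edgeR). Without both libraries 1 AOX1A was called higher (0.22, adjusted p = 0.0051 by edgeR), where 15.3% of all genes were.

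The 12 other NAC genes had 0 calls by edgeR, where 8.95% of all tested genes were called, and a median of −0.11. They had 0 calls by DESeq2 and 1 lower by limma voom, where 9.67% of all genes were lower. The smallest edgeR adjusted p, 0.0525, belonged to NAC091, at 82.1, 81.6 and 80.3 CPM in WT and 69.4, 71.1 and 69.0 CPM in mutant-labelled libraries (−0.22), and it was the 1 gene with an unadjusted p under 0.05. Of 13 other regulators of retrograde signalling 3 fell and 0 rose (median −0.11), where 4.07% of all tested genes fell and 4.89% rose. At an unadjusted p under 0.05 in edgeR 2 were higher and 4 lower. DESeq2 called 0 higher and limma voom 2, where 4.11% and 10.2% of all genes were. NAC102, a NAC factor of chloroplast retrograde signalling, fell from 56.0, 55.5 and 52.5 to 34.4, 37.6 and 39.7 CPM (−0.55; adjusted p = 0.00056 by edgeR), in every way of processing. WRKY40, a repressor of stimulon genes such as AOX1A, fell from 12.97, 11.8 and 15.4 to 8.83, 10.02 and 7.93 CPM (−0.59; adjusted p = 0.0101 by edgeR), and ABI4, another repressor of AOX1A, from 9.46, 7.40 and 9.39 to 7.004, 5.81 and 5.78 CPM (−0.49; adjusted p = 0.0402 by edgeR). WRKY40 lost its call in 3 and ABI4 in 7 of 17 other ways of processing. The 2 genes higher at an unadjusted p under 0.05 were MYB29 and WRKY63, with larger log2 fold changes of 1.08 and 1.16. They were not called (adjusted p = 0.0592 and 0.0718 by edgeR), though each mutant-labelled library lay above each WT library. MYB29 rested on 11 to 33 counts per library and WRKY63 on 6 to 17.

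Among 15 genes of the low-oxygen response, to which ERF71 belongs, 3 rose, 1 fell and 11 were not called, with a median of 0.10. Among all tested genes 4.89% rose and 4.07% fell. RAP2.3, a group VII ERF factor like ERF71, rose from 401, 352 and 337 to 475, 533 and 529 CPM (0.50; adjusted p = 0.0011 by edgeR) and kept its call in every way of processing. RAP2.12 and RAP2.2, of the same group, were not called (0.06 and −0.04, adjusted p = 0.630 and 0.796 by edgeR). The fermentation genes ADH1 (0.36; adjusted p = 0.0019 by edgeR) and PDC1 (0.43; adjusted p = 0.0090 by edgeR) rose, and HRA1, which restrains the response, fell (−0.37; adjusted p = 0.0099 by edgeR). These 3 calls were lost in 1, 2 and 4 of 17 other ways of processing.

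Detoxification genes, to which GSTU25 and UGT74E2 are related by function, went both ways: of 13, 2 rose and 2 fell, with a median of 0.00. Among all tested genes 4.89% rose and 4.07% fell. CYP81D8, a cytochrome P450 gene induced by many stresses, rose (0.48; adjusted p = 0.0048 by edgeR), as did the glutathione transferase gene GSTF8 (0.41; adjusted p = 0.0066 by edgeR). The oxophytodienoate reductase gene OPR2 (−0.37; adjusted p = 0.0148 by edgeR) and the glutathione transferase gene GSTU1 (−0.53; adjusted p = 0.0318 by edgeR) fell. Of these 4, CYP81D8 was called in every way of processing. DIC3 and AT2G18190 had too few counts to be tested. Of the 10 tested relatives, UGT74E1 and AT2G18193, an ATPase gene related to OM66, rose and 0 fell, beside the same shares of all tested genes. AT2G18193 stood at 0.53 (adjusted p = 0.0424 by edgeR), a call lost in 5 of 17 other ways of processing. No relative was lower by edgeR at an unadjusted p under 0.05, by DESeq2 or by limma voom.

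**Figure D5:**
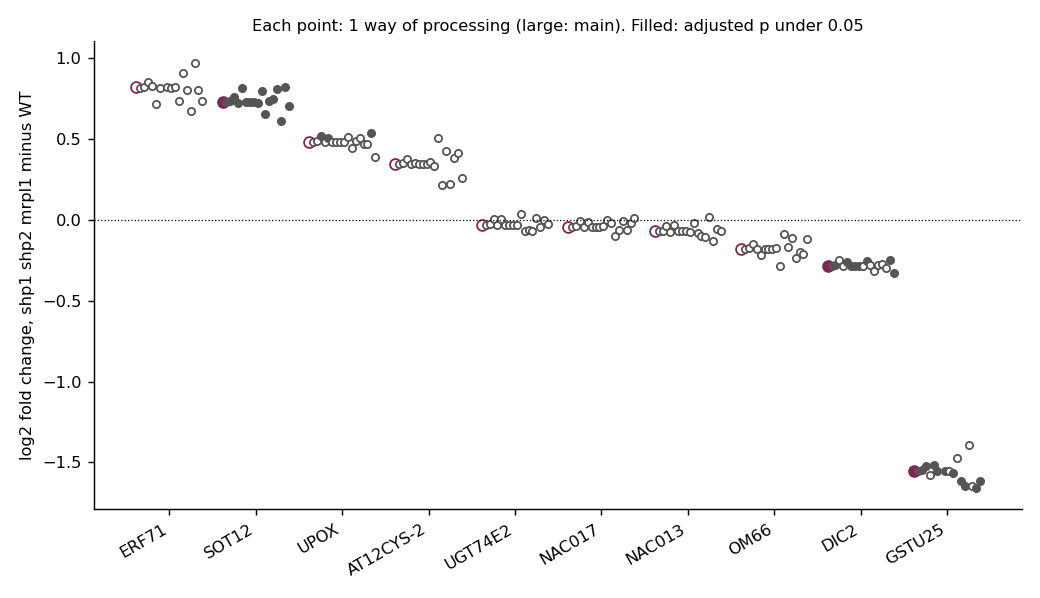
Log2 fold change of each of the 10 genes (vertical axis) in the main test (large circle) and under the other ways of processing (small circles, 17 per gene, 16 for GSTU25 and for ERF71); filled circles have an adjusted p under 0.05. SOT12 is filled throughout, between 0.62 and 0.83, GSTU25 and DIC2 are filled in 11 and 9, UPOX in 3, and the other 6 genes in none.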

How the data were processed

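RNA-seq of siliques gave 1 column of deposited estimated counts per library, 6 in all. Tools named in the submitters' processing notes are HISAT2, Trimmomatic 0.39, featureCounts 1.6.3, FastQC 0.11.9 and DESeq2, with no build, annotation or strand setting. Of the authors' estimated counts, 2.954% to 3.467% per library were not whole (tolerance 1e-09), and all were rounded before testing. Of 27628 identifiers, 27419 matched a transcript of the RefSeq annotation of TAIR10.1, which gave coordinates and sequences. Groups and replicate numbers came from the labels.

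Mutant-labelled libraries were compared with WT by edgeR 4.0.16 in R 4.3.3, with TMM scaling, the default filter (minimum count 10, minimum total 15), the robust quasi-likelihood test and Benjamini-Hochberg adjustment over 20827 genes. Levels are CPM after TMM scaling. The fit was tested on simulated data. Ratios between related genes were compared by exact permutation. The 17 alternatives covered scaling, DESeq2 1.42.0, limma 3.58.1 voom, filters, rounding, a replicate block, transcript length, each library left out and both libraries 1 left out. Limma voom was run with quality weights for the libraries throughout. Same-numbered libraries did not deviate together (correlations −0.36, −0.19 and −0.12), so the main test has no block.

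The 10 genes, the lists and the alternatives were chosen with earlier results of these data known. Named besides the 10 were the called genes of each list, at most 4, or the 1 with the smallest adjusted p, with AOX1A, GSTU24 and the relatives compared in pairs. The pairs were chosen by hand, without a search for the closest relative. MYB29, WRKY63, RAP2.2, RAP2.12, GSTU26, SOT13 and the silique, pollen, petal and stamen markers were named as well.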

Additional observations from a re-analysis of the deposited data

How the results depend on the processing

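Counts of called genes moved with the processing. Against 1865 in the main test, limma voom called 4131 genes, the replicate block 795 and the transcript length correction 3306, while 6492 came from the fit without both libraries 1 and between 1004 and 3002 from fits without 1 library. Library totals gave 1252 higher and 671 lower, against 1018 and 847. Of the 10 genes, library totals, limma voom and the fit without both libraries 1 called 2 higher in place of 1, the added gene being UPOX. In these fits 6.01%, 10.2% and 15.3% of all genes were higher. In place of 2 lower, library totals called 1, without DIC2, where 3.22% of all genes were lower. The CPM filter, which tested 8 of the 10 and removed GSTU25, also called 1, where 4.24% were lower. Fits without 1 library called between 0 and 2, where 2.02% to 6.98% were lower. DESeq2 and the replicate block called 0, where 3.45% and 1.54% were lower. The replicate block left SOT12 as the only call among the 10 (edgeR adjusted p = 0.0202); DIC2 had adjusted p = 0.186.

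Of the values followed through the other ways of processing, signs turned for 6 genes, each within 0.1 of 0 in the main test. Without 1 library NAC013 ran from −0.13 to 0.020 (mutant-labelled library 2 left out), UGT74E2 from −0.068 to 0.035 and SHP2 from −0.039 to 0.012, and with the length correction NAC017 was 0.011 and AT12CYS-1 −0.0053. UGT74E2 was 0.0036 with library totals, 0.0034 with limma voom, 0.035 without WT library 1 and 0.014 without mutant-labelled library 2. SOT11 was −0.00083 without WT library 3. SHP2 was 0.022 with library totals, 0.0072 without WT library 1, 0.012 without mutant-labelled library 3 and 0.0077 without both libraries 1. The cause of these changes was not tested. Depth limits GSTU25 and ERF71, at 4 to 23 counts per library.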
